A study of Rattus norvegicus with 6 samples.

Results

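The 6 cell cycle genes described here were followed in rat tendon, of the 22250 gene IDs in the count table. They were chosen by name, with earlier results of these data known. They were Mki67 (ENSRNOG00000028137), Top2a (ENSRNOG00000053047), Cdk1 (ENSRNOG00000000632), Ccnb1 (ENSRNOG00000058539), Ccna2 (ENSRNOG00000015423) and Pcna (ENSRNOG00000021264). All 6 had enough counts to be tested, as did 15122 of the 22250 IDs. The count table gives IDs only and 0 of them could be looked up in the reference table, so these 6 pairings of ID and symbol come from the list itself and were not checked by another source.

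The animals were Sprague-Dawley rats, 6 weeks old at the start, which had all undergone surgical division and suture repair of the achilles tendon, and RNA was taken from the tendon on day 14 after surgery. The injury model group (3 libraries) received no drug according to the labels. The celecoxib + lactoferrin group (3 libraries) received celecoxib at 10 mg/kg, which inhibits cyclooxygenase-2, and lactoferrin at 2 g/kg, an iron-binding milk protein, both injected each day at the injured site. Every library thus came from an operated tendon, and uninjured tendon and celecoxib alone were not analysed here. The labels give 14 days as an age, whereas in the methods this is the time after surgery. Per the methods, 3 rats of each group were killed on day 14, which matches the number of libraries. No label ties a library to 1 rat, however, so p-values measure the spread between these libraries.

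A dividing cell copies its DNA in S phase and separates the copies in mitosis. Cyclins, whose protein levels rise and fall within each cycle, bind cyclin-dependent kinases and switch them on. Many cycle genes are transcribed mainly, though not only, in cells that divide. Cells of uninjured adult tendon divide little, and tendon repair passes through a phase in which fibroblasts multiply before the matrix is remodelled. Of the 6 genes, Pcna encodes the sliding clamp that holds DNA polymerase on its template, and Ccna2 encodes cyclin A2, which acts in S phase and up to early mitosis. Ccnb1 encodes cyclin B1 and Cdk1 the kinase that it activates for entry into mitosis. Top2a encodes the topoisomerase that untangles sister chromatids, and Mki67 encodes the Ki-67 protein, which coats mitotic chromosomes and is the usual histological marker of dividing cells. In a piece of tissue, fewer dividing cells and less of these transcripts in each of them cannot be told apart.

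Stretches before the RefSeq transcript start of 4 of these genes are shown, because many genes of late cycle phases share a CCAAT box and a cell cycle genes homology region (CHR). Capitals mark matches, on either strand, to the CCAAT box (CCAAT), the CHR (TTTGAA), a CHR variant (TTTAAA) and E2F sites (TTCCCGC as well as TTGGCGC, and likewise TTCGCGC as well as TTGCCGC). The sequences are from RefSeq on build GRCr8, whereas the reads were aligned to Rnor_6.0, so these coordinates belong to the promoters only. Each window holds the 200 bases before the start, apart from Cdk1, where the last 41 bases lie in a longer annotated transcript and were left out.
Top2a (chr10:84473094-84473293, minus strand): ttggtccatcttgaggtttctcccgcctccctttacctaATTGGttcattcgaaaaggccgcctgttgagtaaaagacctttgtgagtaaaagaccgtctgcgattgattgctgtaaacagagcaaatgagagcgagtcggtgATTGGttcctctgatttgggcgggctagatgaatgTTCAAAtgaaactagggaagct
Cdk1 (chr20:19265093-19265251, plus strand): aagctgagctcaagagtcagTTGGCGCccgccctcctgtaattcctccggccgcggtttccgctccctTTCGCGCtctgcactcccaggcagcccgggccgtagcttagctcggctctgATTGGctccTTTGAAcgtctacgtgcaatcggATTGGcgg
Ccnb1 (chr2:33655226-33655425, minus strand): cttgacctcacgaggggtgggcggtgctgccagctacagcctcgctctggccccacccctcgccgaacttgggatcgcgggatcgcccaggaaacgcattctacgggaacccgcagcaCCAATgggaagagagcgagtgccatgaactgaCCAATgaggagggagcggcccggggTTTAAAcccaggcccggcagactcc
Pcna (chr3:139955821-139956020, minus strand): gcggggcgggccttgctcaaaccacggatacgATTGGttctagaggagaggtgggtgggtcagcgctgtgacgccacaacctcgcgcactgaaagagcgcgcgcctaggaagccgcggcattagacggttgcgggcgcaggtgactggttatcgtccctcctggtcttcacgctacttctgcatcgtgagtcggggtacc

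In these windows, Top2a had 1 CHR with a CCAAT box 30 bases upstream of it, and Ccnb1 had the CHR variant with a CCAAT box 20 bases upstream. Cdk1 had 2 CHR matches over the full 200 bases, and the nearest upstream CCAAT box lay 4 bases from the first and 28 bases from the second. Mki67, whose window lies within a longer annotated transcript and is not printed, had 2 CHR matches, 4 CCAAT boxes and 1 E2F site. The second CHR of Mki67 shares its last base with a CCAAT box on the other strand, and that box overlaps a GC box. Pcna had 1 CCAAT box and no match to the CHR or its variant. Ccna2 was not among the promoters used here. E2F sites were also found in Cdk1, which had 2.

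A CHR or its variant together with at least 2 CCAAT boxes was found in 4 of the 5 windows searched, and in 1.32% of the 33469 RefSeq promoters of the same length. With at least 1 CCAAT box instead, it was again 4 of the 5 windows, against 6.12% of all promoters. The motifs planned were single ones, and these combinations were not among them. Taken singly, the CHR was in 3 of the 5 windows and in 12.6% of all promoters, and the variant in 1 window and in 9.46%. A CCAAT box was in all 5 windows and in 29.2% of all promoters, and an E2F site in 2 windows and in 6.44%. GC boxes (GGGCGG), which are common in promoters in general, were in all 5 windows and in 28.6% of all promoters. A TATA box (TATAAA) was in 0 of the 5 windows and in 10.4% of all promoters. Such a match describes the letters and was not tested for binding in these tendons.

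**Figure D1:**
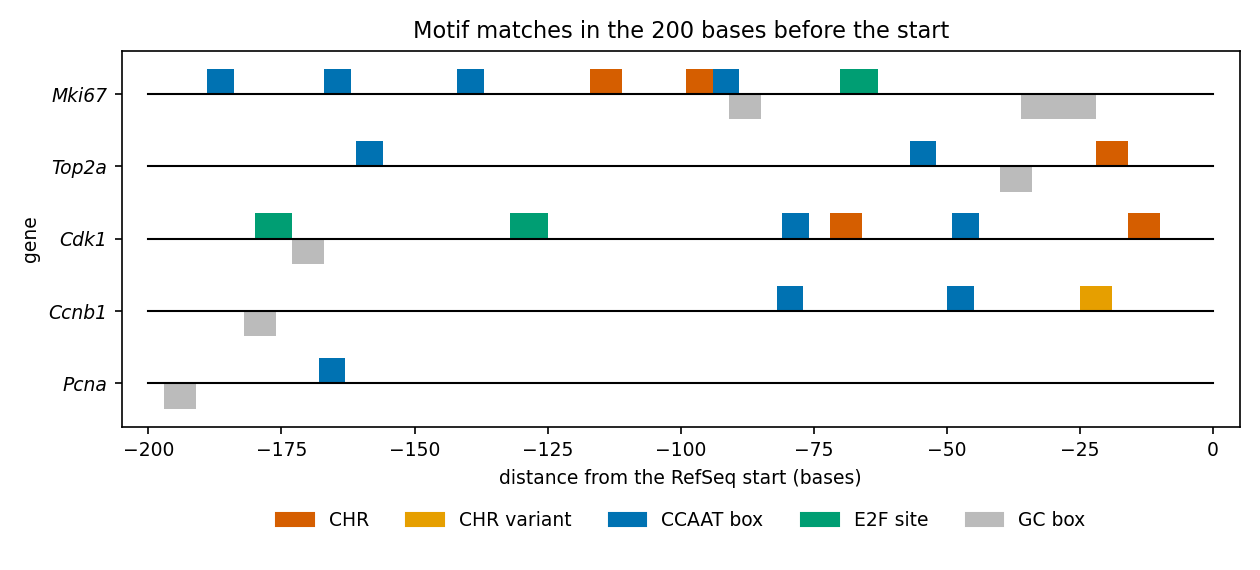
Motif matches in the 200 bases before the RefSeq start of 5 of the genes, with distance from the start in bases on the x axis, 1 row for each gene, and blocks above the line for CHR, CHR variant, CCAAT box and E2F matches and below it for GC boxes. Mki67, Top2a, Cdk1 and Ccnb1 each carry a CHR or its variant and at least 2 CCAAT boxes, and Pcna carries 1 CCAAT box.

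The 6 libraries held between 34546567 and 47181784 counts, and the factors of the trimmed mean of M-values (TMM) that scaled them lay between 0.907 and 1.09. The deeper 3 libraries were injury model 1 and 2 and celecoxib + lactoferrin 3, and the other 3 were shallower, a split that crosses the groups. Celecoxib + lactoferrin 1 was least like the others over all genes tested (mean Pearson's r of log2 CPM 0.902, against 0.919 to 0.936 for the rest), so results are also given without it. The marker genes of tendon and of other cell types could not be looked up by ID, so the tissue label was not checked against them. Levels are TMM-scaled CPM, the usual count scale relative to library size, and since the count of a gene grows with its transcript length they are not compared between genes.

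The question was whether the transcripts of dividing cells differed between treated and untreated injured tendon. None of the 6 genes differed in edgeR's quasi-likelihood test. At an unadjusted p-value under 0.05, the threshold used in the methods of the study, 0 of the 6 were called, where 2.61% of all genes tested were. After Benjamini-Hochberg adjustment over all genes 0 of the 6 were called, against 0.00661% of all genes, and each of the 6 had an adjusted p-value of 0.998 (edgeR). DESeq2 also called 0 of the 6, against 3.21% of all genes at the unadjusted and 0.164% at the adjusted threshold. In all 6 genes the levels of the groups overlapped, whereas they did not overlap in 7.8% of all genes tested. With 6 genes, shares of this size would place less than 1 gene among them, so these counts do not set the genes apart from the rest.

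**Figure D2:**
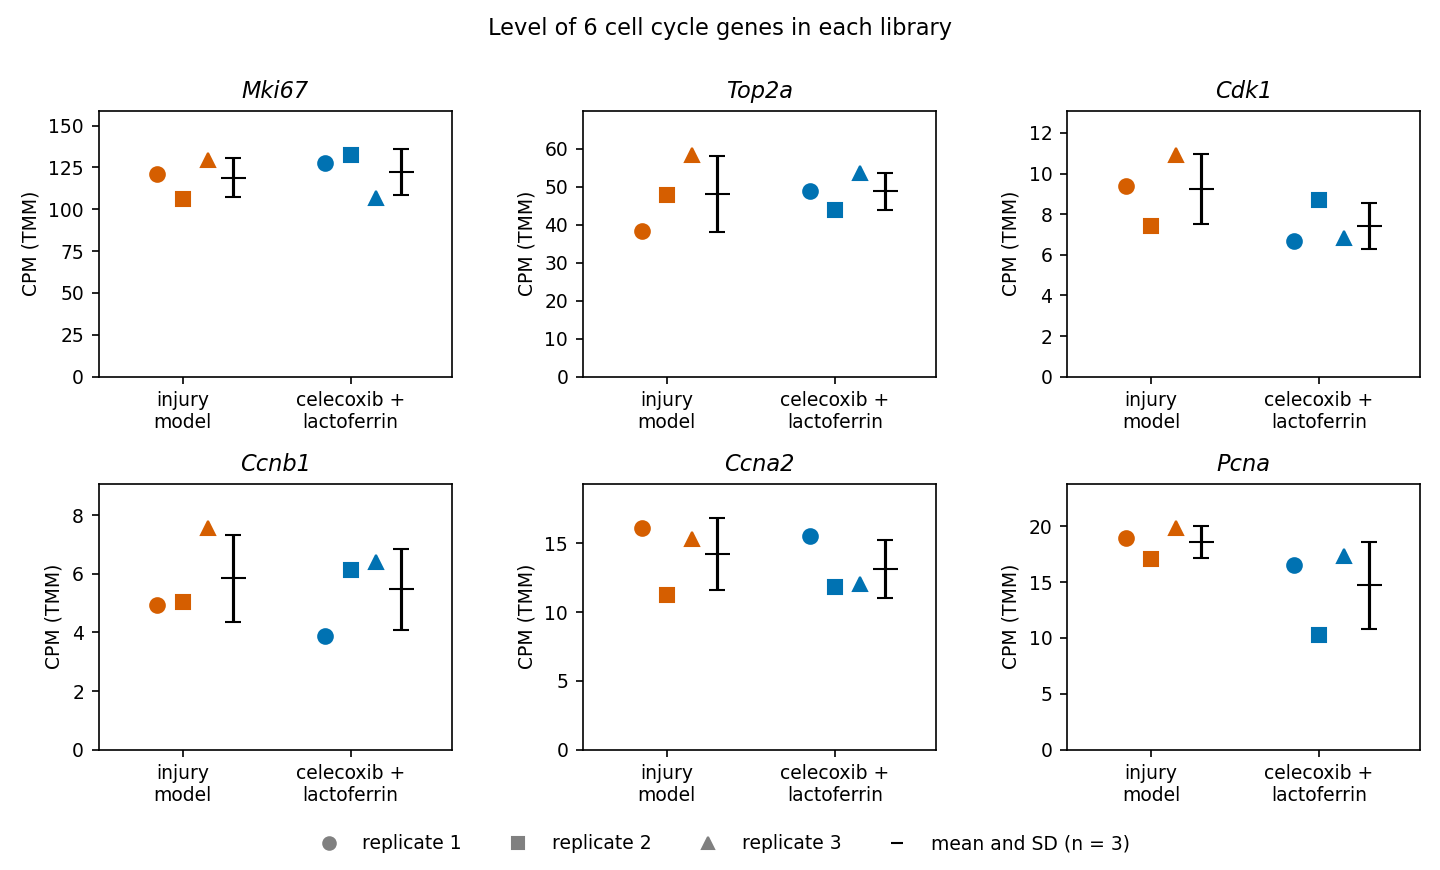
Level of each gene in CPM (TMM-scaled, y axes from 0, a scale of its own for each gene) in the 3 injury model and 3 celecoxib + lactoferrin libraries, with the mean and SD (n = 3) beside the points. In every panel the points of the groups overlap, and the low Pcna value of 10.3 CPM is celecoxib + lactoferrin 2.

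Pcna, the replication clamp, had the largest fitted difference of the 6. Its level was 18.9, 17.0 and 19.8 CPM in injury model libraries 1, 2 and 3, and it was 16.6, 10.3 and 17.3 CPM in celecoxib + lactoferrin libraries 1, 2 and 3. Treated libraries 1 and 2 lay below all 3 of the injury model, library 2 by the larger distance. Treated library 3, at 17.3 CPM, lay above the lowest injury model value. The mean was 18.6 ± 1.42 CPM without the drugs and 14.7 ± 3.88 CPM with them (SD, n = 3 each). This gave a log2 fold change of -0.34 (standard error 0.23, edgeR adjusted p = 0.998), with a 95% interval of the fold change from 0.548 to 1.14. Without celecoxib + lactoferrin 2 the log2 fold change was -0.14, so most of the difference rested on that library. Without celecoxib + lactoferrin 1 it was -0.43.

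Ccna2, for cyclin A2, was at 16.1, 11.2 and 15.3 CPM in the injury model libraries and at 15.6, 11.9 and 12.04 CPM in the treated libraries, in the order of their numbers. Each group held both low and high libraries, and the highest and the lowest value were both in the injury model group. The means were 14.2 ± 2.63 and 13.2 ± 2.09 CPM (SD, n = 3 each), a log2 fold change of -0.11 (standard error 0.22). Its 95% interval ran from 0.654-fold to 1.31-fold. Without celecoxib + lactoferrin 1 the log2 fold change was -0.25, and without injury model 1 it was -0.013.

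Cdk1, the mitotic kinase, was at 9.38, 7.43 and 10.9 CPM in the injury model libraries and at 6.69, 8.72 and 6.85 CPM in the treated libraries. Treated libraries 1 and 3 lay below all 3 of the injury model, and treated library 2 lay among them. The means were 9.24 ± 1.74 and 7.42 ± 1.13 CPM (SD, n = 3 each). The log2 fold change was -0.32 (standard error 0.24), with a 95% interval from 0.549-fold to 1.18-fold. It stayed below 0 in all 13 alternative fits, between -0.45 without injury model 2 and -0.18 without injury model 3, and was -0.25 without celecoxib + lactoferrin 1.

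Ccnb1, for cyclin B1, the partner of Cdk1, was at 4.93, 5.04 and 7.56 CPM in the injury model libraries and at 3.88, 6.14 and 6.39 CPM in the treated ones. Injury model 3 was the highest and celecoxib + lactoferrin 1 the lowest of the 6, with the others between them. With means of 5.84 ± 1.49 and 5.47 ± 1.38 CPM (SD, n = 3 each), the log2 fold change was -0.093 (standard error 0.30) and the 95% interval ran from 0.575-fold to 1.53-fold. Ccnb1 had the fewest counts, between 133 and 322 in a library, and the widest interval of the 6. Its sign turned without either of these libraries, to 0.13 without injury model 3 and to 0.10 without celecoxib + lactoferrin 1.

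Top2a was at 38.2, 47.8 and 58.3 CPM in the injury model libraries and at 48.8, 43.9 and 53.5 CPM in the treated libraries. The treated values all lay inside the range of the injury model group. Its means, 48.1 ± 10.02 and 48.7 ± 4.79 CPM (SD, n = 3 each), gave a log2 fold change of 0.019 (standard error 0.19), with a 95% interval from 0.744-fold to 1.38-fold. Without celecoxib + lactoferrin 1 the log2 fold change was 0.017, and without injury model 1, the lowest library, it was -0.12.

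Mki67 had the narrowest interval. It was at 121, 106 and 129 CPM in the injury model libraries and at 127, 132 and 107 CPM in the treated libraries, so that the lowest libraries, 106 and 107 CPM, came from both groups, as did the highest, 129 and 132 CPM. The means were 119 ± 11.7 and 122 ± 13.5 CPM (SD, n = 3 each). The log2 fold change was 0.040 (standard error 0.16) and the 95% interval ran from 0.793-fold to 1.33-fold, so that for this gene taken alone an increase above 1.33-fold or a fall of more than 1.26-fold lay outside it. Without celecoxib + lactoferrin 1 the log2 fold change was 0.0083.

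**Figure D3:**
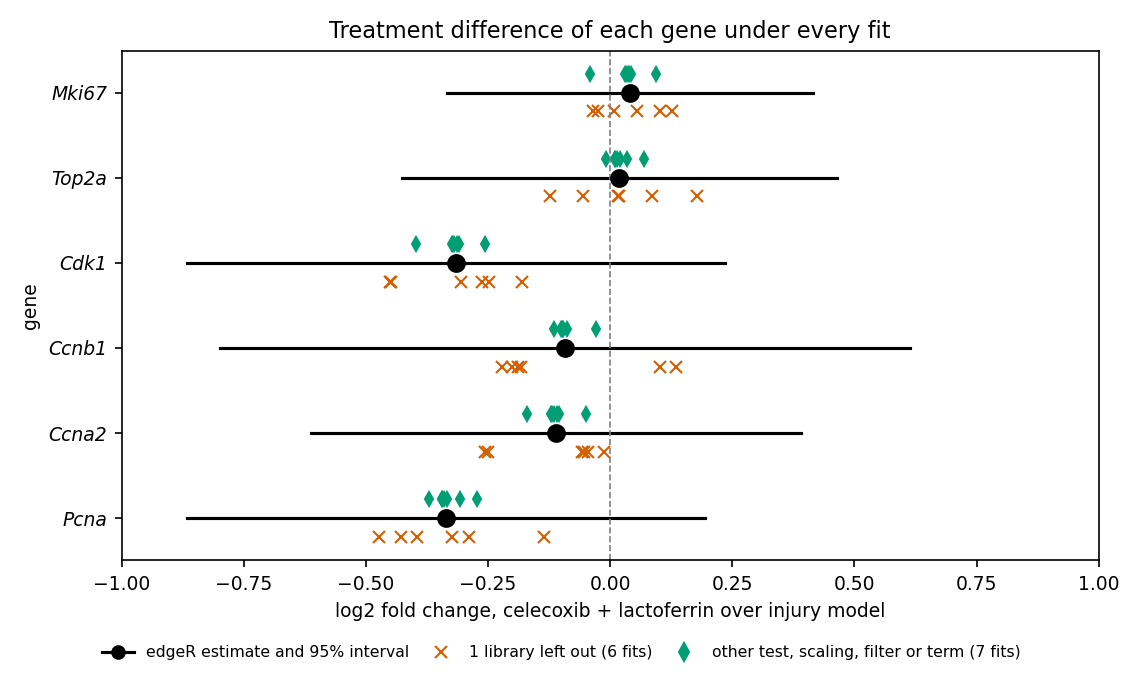
Log2 fold change of each gene, celecoxib + lactoferrin over injury model (x axis), with the edgeR estimate as a dot, its 95% interval as a line, crosses for the 6 fits that each left out 1 library and diamonds for the 7 other fits. All 6 intervals span 0; every estimate of Cdk1, Ccna2 and Pcna lies below 0, while those of Mki67, Top2a and Ccnb1 lie on both sides.

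Of the 6 fitted log2 fold changes, 4 lay below 0, as did 49% of those of all genes tested. The median of the 6 was -0.10, against 0.0067 over all genes tested, and their median absolute size was 0.10, against 0.20 over all genes. Summed over the 6 genes, the level was 209, 195 and 241 CPM in injury model libraries 1, 2 and 3 and 219, 213 and 203 CPM in celecoxib + lactoferrin libraries 1, 2 and 3. The treated libraries all lay within the range of the injury model libraries, with means of 212 ± 8.13 against 215 ± 23.8 CPM (SD, n = 3 each). The sign of this difference, -3.13 CPM, was not stable, as it was 4.87 CPM with library size alone, 9.77 CPM without injury model 3 and 0.973 CPM without celecoxib + lactoferrin 3. Mki67 made up between 52.6% and 62.1% of the counts of the 6 genes in a library. With the other 5 summed, the libraries lay at 87.6, 88.6 and 112 CPM (injury model) and at 91.5, 80.9 and 96.1 CPM (treated). Top2a, at 38.2 to 58.3 CPM, held the largest part of that sum. Such parts also depend on transcript length.

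The spread between libraries exceeded counting error in all 6 genes. Counting error alone (the square root of the count) was between 1.36% and 8.67% of a value, whereas the standard deviation within groups was between 10.5% and 25.4% of the mean. Mki67 was the steadiest, with 10.5% within groups against a median of 16.4% among the 1073 tested genes within 0.5 log2 units of its mean level. Of those genes, 21.1% varied less. Cdk1 varied by 17.6% (median of genes at like level 22.2%), Ccna2 by 17.4% (19.2%) and Pcna by 17.6% (18.6%). Top2a at 16.2% (16.6%) and Ccnb1 at 25.4% (25.2%) lay close to the median of genes at their level. In Pcna the spread was unequal, 7.63% of the mean among injury model libraries and 26.4% among treated ones, and in Top2a it was the other way, 20.8% and 9.82%.

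Of the 6 genes, 1 did not overlap between the deeper and the shallower libraries. Mki67 was lower in each of the 3 deeper libraries (121, 106 and 107 CPM) than in each of the 3 shallower ones (129, 127 and 132 CPM). Among all genes tested 15.5% did not overlap between these libraries, a share near that of the 6 genes, so this count does not set them apart. In a fit with terms for depth and treatment, the deeper libraries differed in Mki67 by a log2 fold change of -0.23, and each of the 6 genes had an adjusted p-value of 0.999 for depth (edgeR). With that term the treatment difference of Mki67 turned from 0.040 to -0.041 and that of Top2a from 0.019 to -0.0078. Each depth class holds only 1 library of either the treated or the injury model group, so no comparison within a class is given.

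Genes of dividing cells are often read as 1 programme, so the agreement of the 6 across libraries was compared next. The library highest in 1 gene was not generally the highest in the others, apart from injury model 3, which was the highest of the 6 in Top2a, Cdk1, Ccnb1 and Pcna and lay above the mean of all 6 libraries in every gene. Injury model 2 lay above that mean in only 1 gene, Pcna. Celecoxib + lactoferrin 1 was the lowest in Cdk1 and Ccnb1 but above the mean in the other 4. Celecoxib + lactoferrin 2 was the lowest in Pcna, by 0.67 log2 units below the mean, and at the same time the highest in Mki67, by 0.14 log2 units above it.

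**Figure D4:**
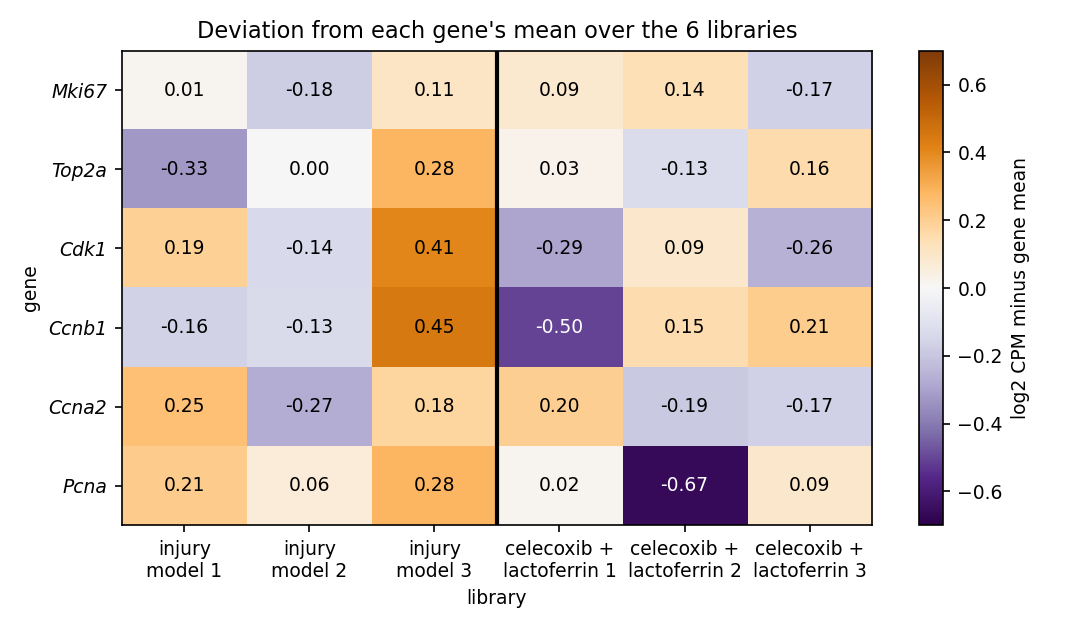
Deviation of each library's log2 CPM from the gene's mean over the 6 libraries, with genes as rows, libraries as columns and a line between the groups. Injury model 3 is above the mean in all 6 genes, while the lowest cells are Pcna in celecoxib + lactoferrin 2 (-0.67) and Ccnb1 in celecoxib + lactoferrin 1 (-0.50).

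Over the 6 libraries, Pearson's r of log2 CPM lay between -0.357 and 0.596 for the 15 pairs of genes, with a median of 0.124, and 9 of the 15 lay above 0. Spearman's rho lay between -0.371 and 0.6, with a median of 0.2. None of the 15 pairs passed a two-sided exact permutation test over the 720 pairings of the libraries, in which the smallest possible p is 0.0028. The smallest p-values were 0.214 for r and 0.242 for rho, and after Benjamini-Hochberg adjustment over the 15 pairs (exact permutation test) the smallest were 0.992 and 0.932. The pair with the highest r was Cdk1 and its cyclin Ccnb1 (r = 0.596, exact permutation p = 0.214; rho = 0.486, exact permutation p = 0.356). Without the libraries farthest from the median of Cdk1, which were injury model 3 and celecoxib + lactoferrin 1, that r was -0.43. Leaving out the extremes narrows the range of Cdk1 and few libraries remain, so this r, like those below, is a description only.

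Mki67 and Top2a, which are both read as marks of proliferation, had r = -0.107 (exact permutation p = 0.847) and rho = 0.0286 (exact permutation p = 1). Mki67 and Pcna had the lowest r, -0.357 (exact permutation p = 0.544), with rho = -0.2 (exact permutation p = 0.714). Without the libraries farthest from the median of Mki67, injury model 2 and celecoxib + lactoferrin 3, these r were 0.545 with Top2a and -0.661 with Pcna. The higher values were those of Mki67 with Ccna2 (r = 0.543) and with Cdk1 (r = 0.523), of Ccna2 with Pcna (r = 0.511) and of Top2a with Ccnb1 (r = 0.501), with exact permutation p-values between 0.275 and 0.331. Their rho was 0.2, 0.371, 0.429 and 0.6 in this order, with exact permutation p-values between 0.242 and 0.714. Without the same libraries as before, the r of Mki67 was -0.773 with Ccna2 and -0.0266 with Cdk1. Those of Ccna2 with Pcna and of Top2a with Ccnb1 became 0.636 and 0.0372 when their own farthest libraries were left out. With each gene taken as its deviation from the group mean, the median of the 15 was 0.0769.

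**Figure D5:**
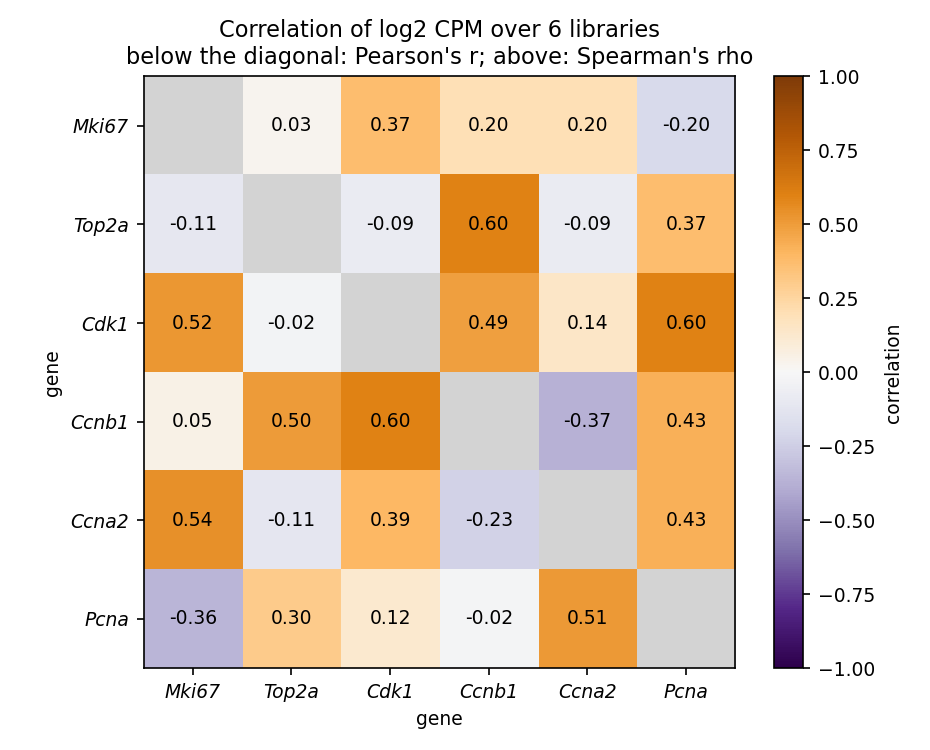
Correlation of log2 CPM over the 6 libraries for each pair of genes, with Pearson's r below the diagonal and Spearman's rho above it. Values run from -0.357 to 0.596 for r and from -0.371 to 0.6 for rho.

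Libraries decided this median: it was -0.27 without injury model 3 and 0.48 without celecoxib + lactoferrin 2, and 0.30 without celecoxib + lactoferrin 1. As a background, the median r of a gene with its 5 partners was set beside its median r with all genes tested. Cdk1 and Ccna2 each had a median of 0.393 with the other 5, against 0.0189 and 0.0109 with all genes. In both cases that median is the r of Cdk1 with Ccna2, so the medians are not separate results. Of all genes, 18.4% and 26.5% had a higher r with Cdk1 and Ccna2 than that. For Mki67 (0.0504), Ccnb1 (0.0504), Pcna (0.124) and Top2a (-0.0237), between 43.5% and 52.5% of all genes had a higher r than their median with the other members. The value of Mki67 and Ccnb1 is likewise the r of that pair. Each share sets a median of 5 values of r against single values, so it is a description only. Mki67, Top2a, Cdk1 and Ccnb1 each had a CHR or its variant and CCAAT boxes, at differing distances. The 6 values of r among them ran from -0.107 to 0.596. Those of the pairs with Ccna2, whose promoter was not searched, or with Pcna ran from -0.357 to 0.543. A link between motifs and r was not tested.

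Ratios of counts within a library do not depend on its scaling. Of the 15 ratios between members, 2 did not overlap between the groups. Cdk1 to Mki67 was 0.0774, 0.0700 and 0.0844 in injury model libraries 1, 2 and 3 and 0.0525, 0.0659 and 0.0641 in the treated libraries, with means of 0.0773 ± 0.00721 and 0.0608 ± 0.00729 (SD, n = 3 each). All 3 treated ratios lay below those of the injury model group. Such a gap between the groups was present in the ratio to Mki67 of 6.26% of all other genes tested. Pcna to Top2a was 0.495, 0.356 and 0.3403 in the injury model libraries and 0.3391, 0.234 and 0.324 in the treated libraries, so the nearest libraries of the groups were almost level, and 4.64% of all other genes had a ratio to Top2a that did not overlap. Both ratios were noticed after all 15 had been seen and were given no test. The shares of all other genes were computed only for Mki67 and Top2a, because a ratio to them had not overlapped. No such share was computed for ratios between all genes, so the count of 2 of 15 does not set the members apart.

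The other ratios overlapped. Ccnb1 to Cdk1, the cyclin to its kinase, was 0.526, 0.678 and 0.693 in the injury model libraries and 0.581, 0.704 and 0.933 in the treated libraries. Ccna2 to Cdk1 had means of 1.54 ± 0.159 without and 1.82 ± 0.487 with the drugs (SD, n = 3 each). Top2a to Mki67 was 0.406 ± 0.0782 and 0.405 ± 0.0866 (SD, n = 3 each). The ratio of Pcna to Mki67 was 0.156, 0.161 and 0.154 in the injury model libraries, a range narrower than that of the treated libraries, at 0.130, 0.0775 and 0.162.

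The mean log2 CPM of the 6 genes was compared with every other gene tested over the 6 libraries. The genes most like it were ENSRNOG00000016703 (r = 0.990) and ENSRNOG00000012297 (r = 0.988), and those most opposed were ENSRNOG00000032550 (r = -0.990) and ENSRNOG00000009872 (r = -0.983). These 4 have no symbol here. Of them, ENSRNOG00000016703 (log2 CPM from -1.55 to 0.614), ENSRNOG00000032550 (-1.66 to -0.532) and ENSRNOG00000009872 (-1.31 to 0.929) had low levels. Each of the 4 had its extreme value in injury model 3, the library in which the members' mean was highest. That library therefore weighs heavily in these r, and r without it was not computed. They are the extremes of 15116 genes compared over 6 libraries, of which 51 (0.337%) had an r above 0.9. The members themselves had r between 0.32 (Mki67) and 0.763 (Cdk1) with their own mean. Each member is a part of that mean, which raises its r, so these values do not measure agreement among the members.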

How the data were processed

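Messenger RNA was measured in 3 injury model and 3 celecoxib + lactoferrin libraries of rat tendon. Per the study's methods, the authors sequenced on an Illumina platform, discarded reads of low quality and used HISAT2 with Rnor_6.0 for alignment. The submitters' processing notes name GRCh38.p13, a human build, although the IDs are rat IDs. The authors deposited raw counts per gene without normalization. The counting tool, its strand setting and its rule for reads that match several genes are not given in the sources used here, so overlapping genes and near-identical copies are uncertain. Columns were tied to samples by the group codes and numbers in the header (M, RS). RS is not in the labels and was read as celecoxib + lactoferrin from the study's heatmap of these groups.

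The whole table was fitted with edgeR 4.0.16 in R 4.3.3 (quasi-likelihood test, robust, TMM, filterByExpr, Benjamini-Hochberg adjustment over 15122 genes). DESeq2 1.42.0 was an alternative. Log2 CPM used a prior count of 2, and the 95% intervals are those of single genes, not adjusted. The scripts were tested on simulated data. These intervals include the spread between libraries, whereas the counting errors given for counts cover counting only.

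The members and the lists were chosen with earlier results of these data known. Genes to be named were the 6 members, genes of other cell cycle and cell type lists, and the genes most like the members' mean. Those lists were left out because 0 of the 22250 IDs matched the reference table, and for the same reason 4 IDs are given for likeness.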

Additional observations from a re-analysis of the deposited data

How the results depend on the processing

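Across 13 alternative fits (another test, 2 other scalings, 2 other filters, a replicate block, a term for depth and 6 fits without 1 library each), 0 of the 6 genes were called at an unadjusted or adjusted p-value under 0.05. Adjusted p-values (edgeR or DESeq2) lay between 0.822 and 1. Cdk1, Ccna2 and Pcna kept their direction in all 13. The sign of the others turned as follows, and the cause was not tested. With a term for depth the log2 fold change was -0.041 for Mki67 and -0.0078 for Top2a. Over the fits without 1 library it ran from -0.035 to 0.13 for Mki67, from -0.12 to 0.18 for Top2a and from -0.22 to 0.13 for Ccnb1, and it was below 0 for Mki67 without injury model replicate 2 or celecoxib + lactoferrin replicate 2. The summed level, treated minus injury model, was -3.13 CPM with TMM and 4.87 CPM with library size alone, and ran from -13.1 to 9.77 CPM without 1 library. The median r of the 15 pairs ran from -0.27 to 0.48 without 1 library.

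With the replicate number as a block, the log2 fold changes were 0.039 (Mki67), 0.035 (Top2a), -0.31 (Cdk1), -0.10 (Ccnb1), -0.11 (Ccna2) and -0.37 (Pcna), and 0 genes were called. Deviations from the group means correlated over genes with r from -0.267 to 0.0568 between libraries sharing a number. Between libraries of other numbers r ran from -0.305 to 0.301. Deviations within a group cancel and each group has only 3 libraries, so these r cannot decide whether the numbers mark a pairing. Ccnb1 had the largest counting error, up to 8.67% of a value, which was below its spread within groups of 25.4%. Having 3 libraries a group limits all 6 genes. The fits planned for other cell cycle lists were not run, because their IDs could not be looked up.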
